A study of Homo sapiens with 64 samples.

Results

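The comparison asked what the dye itself did to DLD1 cells after 6 days in culture. DLD1 is a human colorectal cancer cell line. The members were the 8 unsorted control libraries of that time, chosen by their labels and not by any measured value, out of 64 libraries in the study. Of these, 4 came from cells labeled with CFSE (labels "CFSE d5") and 4 from unlabeled cells that had received the solvent DMSO in place of the dye (labels "DMSO d5"). The labels give day 5 and the design text day 6 for the same controls, and day 6 is used here. All 8 cultures were the same line, grown as non-adherent spheroids with the growth factors bFGF and EGF, and none was sorted. Controls of the same kinds at day 1 (4 with CFSE and 4 without) shared the statistical fit. Sorted DLD1 label-retaining cells (LRC, 4 libraries) and cycling cells (BULK, 4 libraries) served as an outside comparison. The rest of the study took LRC and BULK cells from 6 lines at day 6, without any dye-free counterpart outside DLD1.

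CFSE enters living cells as an uncharged ester. Esterases inside the cell cleave it to a fluorescent form that binds amine groups of proteins and stays in the cell, so that each division divides the stain between the daughters. Cells that divide little stay bright and are collected as label-retaining cells. The study included the DLD1 controls to look for off-target effects of CFSE and for artifacts of culture. The genes described below are grouped by the processes that such a dye or a change in growth could touch: DNA replication and mitosis, the NRF2 program that renews glutathione and thioredoxin, chaperones, esterases and efflux pumps, and the pathways that the study examined in label-retaining cells.

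The 8 libraries held 13560322 to 17147952 reads on genes. Reads outside annotated genes were 5.19% to 8.35% of each library, with overlapping ranges in both groups. No pair of libraries agreed within counting noise. In a principal component analysis of the 8 libraries, the CFSE-labeled libraries 1 and 2 lay at 44.02 and 46.5 on the first component, libraries 3 and 4 at -3.22 and 3.795, and the unlabeled libraries at -19.3, -0.683, -30.1 and -41.0. Every unlabeled library except number 2 was therefore below every CFSE-labeled library on that axis. Within both groups, libraries 1 and 2 differed from libraries 3 and 4. This split, taken separately within each group, held 40.2% of the sum of squares of the 8 libraries. The dye, a single contrast, held 33.4%, so the shares are not directly comparable. Unlabeled library 1 stood apart on the second component (-49.7) and had the highest share of mitochondrial reads (6.53% against 2.84% to 4.14% in the other 7). The numbers that end the sample titles ran from 53 to 56 in the unlabeled group and from 61 to 64 in the CFSE-labeled group, so the dye and any order of handling that these numbers reflect cannot be told apart. The study's methods state that samples were randomized before libraries were made, and whether the numbers follow that order is not given. There is no targeted gene by which RNA could check the labels. In the study's methods the replicates of all experiments are described as biological.

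Among the day 1 controls, the library labelled unlabeled day 1 replicate 4 stood apart. The SD over genes of its log2 CPM difference was 0.69 from the mean of the other unlabeled day 1 libraries and 0.35 from the mean of the unlabeled day 6 libraries. For unlabeled day 1 libraries 1 to 3 the same measure was 0.34 to 0.37 from their own group and 0.77 to 0.84 from the unlabeled day 6 group. CFSE-labeled day 1 libraries 3 and 4 were at 0.43 and 0.42 from the unlabeled day 1 mean and at 0.46 and 0.45 from their own, whereas each of the 8 day 6 libraries was nearest to its own group. NDP, a gene described below, was at 0.298, 0.555, 0.453 and 12.7 CPM in unlabeled day 1 libraries 1 to 4. The library was kept under its label. Day 1 counts, list medians and the values of some genes are given with it and without it, and other day 1 gene values with it only.

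**Figure D1:**
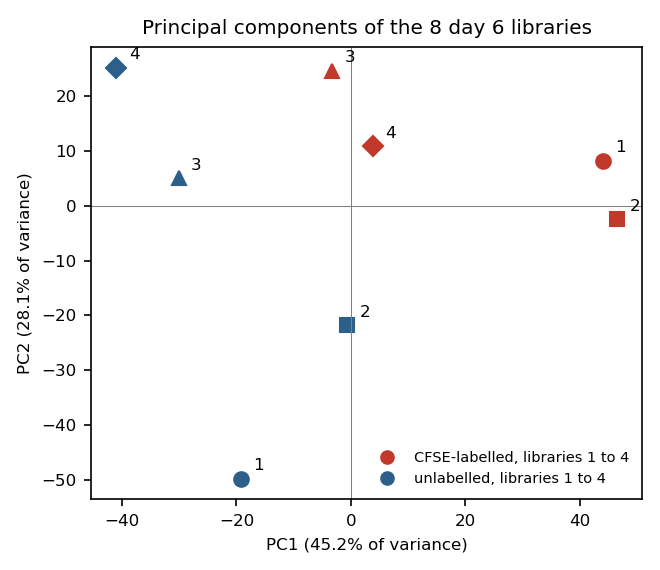
First and second principal components (percent of variance on the axes) of log2 CPM in the 8 day 6 libraries, red for CFSE-labeled and blue for unlabeled, numbered 1 to 4 by replicate. The CFSE-labeled libraries lie to the right, libraries 1 and 2 of that group farthest at 44.02 and 46.5, and unlabeled library 1 lies alone at the bottom at -49.7.

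Across 14518 genes tested, 745 passed an adjusted p under 0.05 for the dye at day 6, which is 5.13%. Of these, 451 rose in CFSE-labeled cells (3.11% of the genes tested) and 294 fell (2.03%). Most changes were small: the median size over all genes was 0.234 on the log2 scale, 383 genes rose (2.64%) and 267 fell (1.84%) by at least 0.5, and 43 rose (0.296%) and 102 fell (0.703%) by at least 1. The count rested on single libraries. It was 0 without CFSE-labeled library 1, 0 without CFSE-labeled library 2, 1 without unlabeled library 1, 16 without unlabeled library 4 and 139 without unlabeled library 3, whereas leaving out any of the other 3 gave 767 to 814. With no call left, the lowest adjusted p was 0.0862 without CFSE-labeled library 1 and 0.0798 without library 2, and 2380 and 2402 genes had an unadjusted p under 0.05, against 3537 (24.4%) with all libraries. DESeq2, run with all libraries, called 1521. The day 1 libraries entered through the shared estimate of spread. Without the library labelled unlabeled day 1 replicate 4 the count at day 6 was 1973 (974 higher and 999 lower) and included all 745, and without any other day 1 library it was 571 to 659. Leaving out that library moved no list median at day 6 by more than 0.0015, and the genes called higher at day 6 were then 39 of 42 in S phase, 42 of 54 in G2/M, 11 of 22 NRF2 targets, 9 of 19 chaperones and, among decreases, 6 of 29 hypoxia genes, 4 of 19 Wnt targets and 6 of 11 epithelial markers, lists that are described below. In every one of these fits each of the 745 genes that was tested kept its sign. These genes were chosen by the full set, and each fit reuses most of its libraries, so a kept sign is no independent check. The calls below are therefore calls of the full set of libraries, and the values of each library are given beside them.

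**Figure D2:**
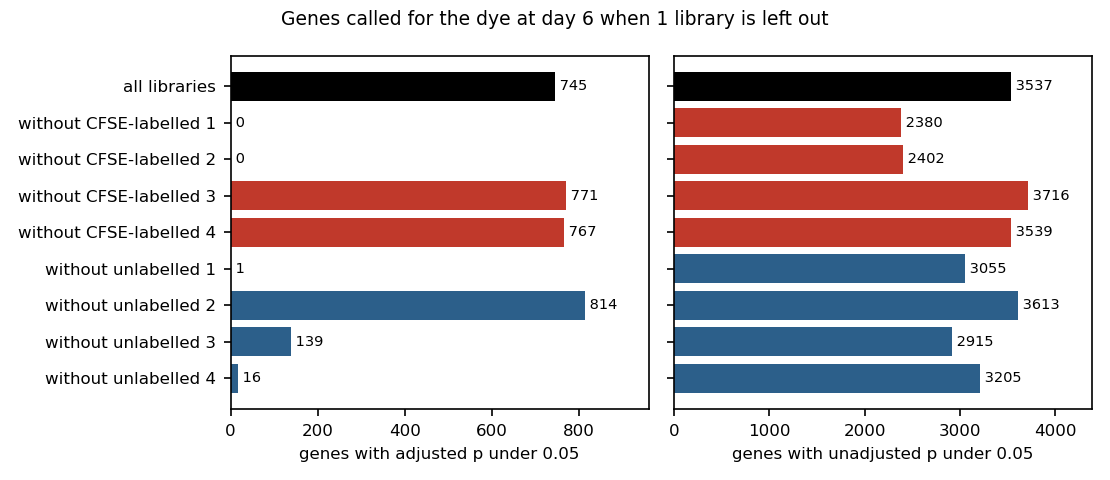
Number of genes called for the dye at day 6 by edgeR (adjusted p under 0.05, left; unadjusted p under 0.05, right) with all 8 libraries (black) and with each CFSE-labeled (red) or unlabeled (blue) library left out. The adjusted count is 745 with all libraries and 0 without CFSE-labeled library 1 or 2, while the unadjusted count stays between 2380 and 3716.

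Genes of DNA replication were higher in CFSE-labeled cells. Of 42 S phase genes tested, from a list commonly used to score the cell cycle, 35 rose (83.3%, against 3.11% of all genes tested) and none fell. The median log2 fold change was 0.75 against -0.03 over all genes. In 38 of the 42, all CFSE-labeled values lay above all unlabeled values, which was so for 9.33% of all genes. The list's median per library, relative to the unlabeled mean, was 0.93, 0.93, 0.59 and 0.59 in CFSE-labeled libraries 1 to 4 and -0.16, 0.25, -0.01 and -0.11 in the unlabeled ones. It was thus highest in the CFSE-labeled libraries 1 and 2, and no unlabeled library reached the lowest CFSE-labeled value. The median was 0.82 within libraries 1 and 2 and 0.67 within libraries 3 and 4. The calls were lost when CFSE-labeled library 1 or 2 or unlabeled library 1 was left out (0 of 42), 1 was left without unlabeled library 4 and 6 without unlabeled library 3. The medians were then 0.68 to 0.72, and over all 8 such fits 40 or 41 of the 42 had an unadjusted p under 0.05. Base composition also moved with the dye calls. S phase genes had a median transcript GC content of 43.8% against 48.3% over all tested genes, and with each library's trend on GC content and length removed their median was 0.69 with 33 calls. In bulk RNA, more cells in S phase and more of these transcripts per cell cannot be told apart.

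MCM10 (chr10:13203558-13253110 in hg19), which helps to activate the replicative helicase, is not on that list but was among the 10 largest increases of all genes that met the naming rule. It counted 69.6, 66.6, 53.02 and 51.8 CPM (reads per 1000000 reads on genes, TMM-scaled) in CFSE-labeled libraries 1 to 4 and 19.8, 30.9, 25.2 and 27.6 CPM in unlabeled libraries 1 to 4. The groups were far apart, with a log2 fold change of 1.22 ± 0.21 (SE; adjusted p = 0.0161 in edgeR's quasi-likelihood test). DTL (chr1:212208895-212280742), a substrate receptor of the ligase that destroys replication factors after use, was at 72.8, 76.2, 57.2 and 59.1 CPM with the dye and 28.6, 42.5, 35.02 and 29.7 CPM without (log2 fold change 0.96 ± 0.19, adjusted p = 0.0169). ATAD2, a chromatin ATPase that is high in dividing cells, gave 265, 278, 241 and 238 CPM against 124, 174, 154 and 134 CPM (log2 fold change 0.80 ± 0.12, adjusted p = 0.0161). In all 3 genes the lowest CFSE-labeled library exceeded the highest unlabeled one. TYMS, which makes the thymidylate needed for DNA, stood at 332, 344, 266 and 271 CPM against 168, 220.4, 168 and 175 CPM (log2 fold change 0.73 ± 0.16, adjusted p = 0.0229). PCNA, the sliding clamp of DNA polymerases, was at 434, 442, 316 and 335 CPM with CFSE and 202, 277, 215 and 209 CPM without (log2 fold change 0.76 ± 0.16, adjusted p = 0.0207). CDC6, a licensing factor of replication origins, reached 237, 228, 147 and 152 CPM against 67.97, 107, 85.1 and 80.5 CPM (log2 fold change 1.17 ± 0.23, adjusted p = 0.017). PCNA and CDC6 were chosen after their values were seen. The 7 members that did not pass (UNG, HELLS, SLBP, UBR7, DSCC1, CASP8AP2 and MRPL36) had log2 fold changes from 0.23 for SLBP, which binds histone mRNA, to 0.75 for DSCC1.

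Mitotic genes moved the same way by a little less. Of 54 G2/M genes tested, 34 rose and none fell, and the median log2 fold change was 0.60. In 42 of the 54 all CFSE-labeled values lay above all unlabeled ones, against 9.33% of all genes. Per library the median was 0.68, 0.68, 0.48 and 0.52 with CFSE and -0.12, 0.21, 0.00 and -0.05 without, so the order of the libraries was nearly that of the S phase list. Of the 34 calls, 0 were left without CFSE-labeled library 1 or 2 or unlabeled library 1, 2 members were called without unlabeled library 4 and 10 without unlabeled library 3, with medians of 0.55 to 0.65 over all such fits. An unadjusted p under 0.05 was found for 45 or 46 members in each of these fits. Within libraries 1 and 2 the median was 0.64, and within libraries 3 and 4 it was 0.59.

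ANLN (chr7:36429430-36493400), the actin-binding scaffold of the cleavage furrow, counted 295, 313, 229.6 and 235 CPM with CFSE and 116, 163, 153 and 129 CPM without (log2 fold change 0.93 ± 0.15, adjusted p = 0.0161). CKAP2L, a spindle protein, had 61.1, 61.6, 62.3 and 59.9 CPM against 36.4, 41.5, 40.7 and 39.4 CPM (log2 fold change 0.63 ± 0.10, adjusted p = 0.0161). The spread of CKAP2L between libraries was small in both groups. TOP2A, the topoisomerase that untangles chromosomes, gave 972, 996, 964 and 903 CPM and 462, 647, 633 and 553 CPM (log2 fold change 0.74 ± 0.13, adjusted p = 0.0161), and it too was chosen after its values were seen. MKI67, which encodes the proliferation marker Ki-67, did not pass. Its values were 364, 188, 855 and 554 CPM with CFSE and 94.9, 151, 430.1 and 539 CPM without (log2 fold change 0.69 ± 0.44, adjusted p = 0.357). Libraries 3 and 4 were higher than libraries 1 and 2 in both groups, so the groups overlapped widely for this gene, whereas in 42 members the groups did not overlap. CDKN1A, the CDK inhibitor p21, was at 154, 147, 77.2 and 85.1 CPM and 85.1, 106, 69.9 and 76.02 CPM and did not pass (log2 fold change 0.46 ± 0.36, adjusted p = 0.462). Among 19 CDK inhibitors and p53 targets, 1 rose and 1 fell (5.26% each). Over all genes tested 3.11% rose and 2.03% fell, so these counts set the list little apart. The death receptor gene FAS was higher with the dye (43.98, 49.3, 35.5 and 34.1 CPM against 29.1, 26.8, 25.01 and 22.04 CPM, log2 fold change 0.66 ± 0.14, adjusted p = 0.0213). BBC3, which encodes the pro-apoptotic protein PUMA, was lower (15.3, 14.6, 21.5 and 20.1 CPM against 29.9, 29.2, 31.7 and 35.04 CPM, log2 fold change -0.81 ± 0.16, adjusted p = 0.0169).

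The promoters of 4 of these genes are shown because replication and mitotic genes are known to carry a few recurring short motifs near their start. E2F factors bind sites such as TTTGGCGC or TTTCCCGC in S phase promoters, while the cell cycle homology region (CHR, TTTGAA) often lies near a CCAAT box in promoters of mitotic genes. The 150 bases before the annotated start are printed 5′ to 3′ on the gene's strand, from RefSeq in build GRCh38.p14, with matches to these letters on either strand in capitals. No matches overlapped one another in these windows.
MCM10, chr10:13161408-13161557, plus strand: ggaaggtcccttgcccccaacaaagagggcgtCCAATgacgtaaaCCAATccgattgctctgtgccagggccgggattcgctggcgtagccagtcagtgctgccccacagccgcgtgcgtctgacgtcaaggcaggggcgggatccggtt
DTL, chr1:212035598-212035747, plus strand: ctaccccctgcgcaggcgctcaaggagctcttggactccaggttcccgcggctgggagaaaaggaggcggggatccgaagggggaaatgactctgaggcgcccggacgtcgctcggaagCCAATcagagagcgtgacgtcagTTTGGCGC
ANLN, chr7:36389712-36389861, plus strand: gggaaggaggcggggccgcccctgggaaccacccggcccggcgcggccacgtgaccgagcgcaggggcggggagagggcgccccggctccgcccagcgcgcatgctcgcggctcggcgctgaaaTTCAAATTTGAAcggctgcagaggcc
CKAP2L, chr2:112764610-112764759, minus strand: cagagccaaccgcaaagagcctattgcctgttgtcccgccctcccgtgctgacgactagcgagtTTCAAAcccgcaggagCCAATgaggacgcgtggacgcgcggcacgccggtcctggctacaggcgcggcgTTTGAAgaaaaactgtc
MCM10 held CCAAT letters that began 118 and 105 bases before the start. DTL held CCAAT 31 bases and TTTGGCGC 8 bases before it. ANLN held adjoining copies of TTTGAA on opposite strands, 26 and 20 bases before the start, and CKAP2L held TTTGAA at 86 and 17 bases with CCAAT at 70. In windows from 250 bases before to 50 bases after the start, 31 of the 45 tested G2/M genes with a promoter held TTTGAA (68.9%) and 31 held CCAAT. Among the 10679 tested genes with a promoter these shares were 9.72% and 36.7%, and among all 27305 promoters 15.4% and 35.7%. TTTGGCGC was found in 1.01% and TTTCCCGC in 2.63% of the tested genes' promoters, and in 0.659% and 1.66% of all promoters. Only 32 of the 42 S phase genes had a promoter in the table, so their shares describe a part of the list. CCAAT was held by 22 of the 32 (68.8%), as often as in G2/M genes, TTTGAA by 1, TTTGGCGC by 6 and TTTCCCGC by 8. A match describes letters and shows no binding.

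**Figure D3:**
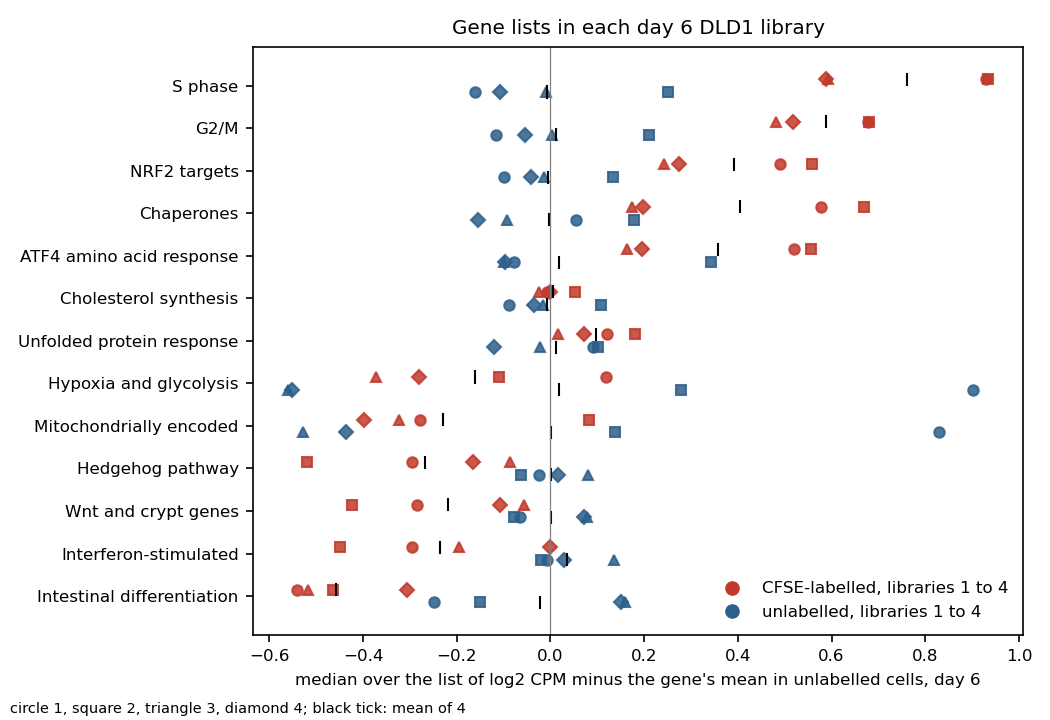
For 13 gene lists, the median over members of log2 CPM minus each gene's unlabeled day 6 mean, 1 point per library (red CFSE-labeled, blue unlabeled; circle, square, triangle and diamond for libraries 1 to 4) and black ticks for the mean of 4. S phase and G2/M values of all CFSE-labeled libraries lie right of every unlabeled one, while hypoxia and mitochondrially encoded genes stand out at 0.90 and 0.83 in unlabeled library 1.

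At day 1 both lists had medians near or below 0. The S phase median for the dye at day 1 was -0.01 with 1 gene higher and 1 lower, and -0.16 with 1 higher and 5 lower without the library labelled unlabeled day 1 replicate 4. The G2/M median was -0.07 with 1 higher and 4 lower, and -0.16 with 0 higher and 8 lower without it. Relative to the unlabeled day 6 mean, the S phase list was at 0.42, 0.49, 0.52 and 0.61 in CFSE-labeled day 1 libraries 1 to 4 and at 0.72, 0.67, 0.79 and -0.03 in the unlabeled ones. For G2/M these values were 0.38, 0.36, 0.29 and 0.32 with CFSE and 0.48, 0.52, 0.45 and 0.00 without. In both lists the first 3 unlabeled libraries were thus above, and the fourth below, every CFSE-labeled day 1 library. The dye effect at day 6 minus that at day 1 was tested in the same fit. It passed for 145 of 14518 genes (0.999%), 123 of them higher at day 6 (0.847%) and 22 lower (0.152%). Among these were 6 of the 42 S phase genes and 9 of the 54 G2/M genes, all higher. The count of 145 was unstable, at 16 to 835 when 1 library of either day was left out, and leaving out unlabeled day 6 library 2 was the only case that moved it by less than 1.5 times. It was 16 without CFSE-labeled day 1 library 2, 19 without CFSE-labeled day 6 library 2 or 4, and 835 (551 higher and 284 lower) without the library labelled unlabeled day 1 replicate 4, of which 33 were S phase and 34 G2/M genes, all higher. ATAD2 differed by 0.80 ± 0.17 (adjusted p = 0.0338), with a dye effect near 0 at day 1 (-0.00, and -0.06 without that library). CKAP2L differed by 0.90 ± 0.14 (adjusted p = 0.0106) and TYMS by 1.09 ± 0.23 (adjusted p = 0.0356). Without that library these differences were 0.86, 0.96 and 1.24, and each passed. TYMS was at 164, 175, 199 and 216 CPM in CFSE-labeled and 273, 268, 266 and 159.5 CPM in unlabeled day 1 libraries 1 to 4, so the fourth unlabeled library alone lay below all CFSE-labeled ones. TOP2A changed in opposite directions, with a log2 fold change of -0.48 ± 0.13 at day 1 (adjusted p = 0.0156) and 0.74 ± 0.13 at day 6 (difference 1.22 ± 0.18, adjusted p = 0.00863), and of -0.55 ± 0.13 at day 1 without that library (adjusted p = 0.0111). For MCM10 and DTL the difference between days did not pass with all libraries (adjusted p = 0.139 and 0.0737) and passed without that library (adjusted p = 0.00397 and 0.00389).

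At day 1 the dye was called for 3162 genes (21.8%), 1413 higher (9.73%) and 1749 lower (12%), for 1355 and 1431 genes without CFSE-labeled day 1 library 1 and library 2, and for 2694 (1294 higher and 1400 lower) without the library labelled unlabeled day 1 replicate 4. Of the 451 genes that rose at day 6, 112 also rose at day 1 (24.8%) and 6 fell there. Of the 294 that fell at day 6, 139 also fell at day 1 (47.3%) and 3 rose. The shared genes were 7.93% of the increases and 7.95% of the decreases at day 1. Without that unlabeled library, 83 of the 451 also rose at day 1 (18.4%) and 29 fell there, and 91 of the 294 also fell (30.95%) and 4 rose. These dye comparisons used different libraries within 1 fit, and over the 14518 genes their log2 fold changes had a Pearson r of 0.47 and a Spearman rho of 0.45 (both 0.30 without that library) as a description across genes, which are not independent replicates. Cholesterol synthesis was a list that differed between the days. At day 1, 22 of 25 genes fell (median -1.05), at day 6 edgeR and DESeq2 called 0 and 0 had an unadjusted p under 0.05 (median -0.02), and for 6 of the 25 the difference between days passed (22 fell at day 1, median -1.07, and 13 differences passed without the library labelled unlabeled day 1 replicate 4). EBP, a sterol isomerase, had a log2 fold change of -0.81 ± 0.16 at day 1 (adjusted p = 0.00403) and 0.32 ± 0.16 at day 6 (adjusted p = 0.238), a difference of 1.12 ± 0.23 (adjusted p = 0.0314). SREBF2, the transcription factor that drives these genes, was at -0.93 at day 1 and -0.30 at day 6, and its difference did not pass (adjusted p = 0.175). Immediate early and AP-1 genes rose at day 1 for 12 of 20 (median 1.27, and 10 with a median of 1.12 without that library). At day 6 edgeR called 0 higher and DESeq2 1, and both called 1 lower. In edgeR it was JUND (89.3, 79.4, 94.2 and 113 CPM against 153, 127, 125 and 124 CPM, log2 fold change -0.49 ± 0.11, adjusted p = 0.024), and the list's median was 0.15. MYC was at 217, 199, 138 and 129 CPM and 120.0, 143, 113 and 116 CPM at day 6 (log2 fold change 0.47 ± 0.19, adjusted p = 0.132) after a log2 fold change of 1.34 ± 0.19 at day 1. IER3, an early response gene, was at 1.20 and missed the threshold (adjusted p = 0.0714, and 0.0131 without that library).

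The dye effect at day 6 was set beside the difference between sorted DLD1 label-retaining and cycling cells, which shared no library with it. LRC against BULK was called for 1978 of 13592 genes (14.6%), 906 higher (6.67%) and 1072 lower (7.89%) in LRCs. The titles give the LRC and BULK fractions of each sort the same replicate number, and with that number as a block 4591 genes were called (2330 higher and 2261 lower). Of 13226 genes tested in both, 286 were called in both, which was 14.7% of the LRC calls and 39.7% of the dye calls, where 5.45% of all these genes were dye calls. Only 8 of the 286 had the same direction, and 278 were opposite: 216 were higher with the dye and lower in LRCs, and 62 were lower with the dye and higher in LRCs. Against the blocked LRC calls 471 of the dye calls were shared, 443 of them opposite and 28 in the same direction, and with the block in both fits 824 were shared. Across the 13226 genes the log2 fold changes had a Pearson r of -0.34 and a Spearman rho of -0.37. Of the S phase genes, 36 of 42 were lower in LRCs (median -0.50), and of the G2/M genes 30 of 54 (median -0.46), none of either being higher. With the block these counts were 38 of 42 and 51 of 54. DTL had a log2 fold change of -0.72 ± 0.13 in LRCs (adjusted p = 0.00559) and TYMS of -0.72 ± 0.10 (adjusted p = 0.00157). The count of 286 followed the dye calls, at 0 without CFSE-labeled library 1 or 2, 1 without unlabeled library 1, 9 without unlabeled library 4 and 61 without unlabeled library 3, and at 580 (551 opposite) without the library labelled unlabeled day 1 replicate 4. No library was dye-free and sorted, so the dye's part in the difference between LRC and BULK was not tested.

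**Figure D4:**
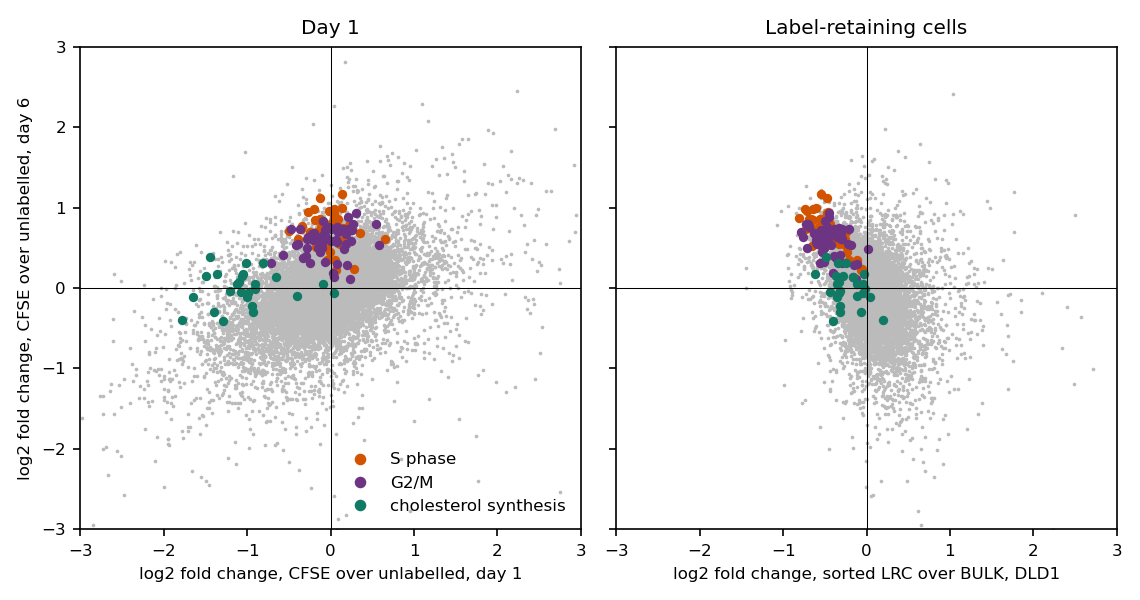
Log2 fold change for CFSE at day 6 (y axis) against the log2 fold change for CFSE at day 1 (left) and for sorted label-retaining over cycling DLD1 cells (right), 1 grey point per gene, with points beyond 3 in either direction not drawn. S phase (orange) and G2/M (purple) genes lie above 0 for the dye at day 6, around 0 at day 1 (medians -0.01 and -0.07, or -0.16 for both without the library labelled unlabeled day 1 replicate 4) and left of 0 in label-retaining cells (medians -0.50 and -0.46), and cholesterol synthesis genes (green) lie left of 0 on the day 1 axis (median -1.05) and near 0 for the dye at day 6 (median -0.02).

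NRF2 targets were higher in part. NRF2 is the transcription factor that raises glutathione and thioredoxin systems when electrophiles modify its inhibitor KEAP1. Of 22 targets tested, 7 rose (31.8%, against 3.11% of all genes tested) and none fell, and the median log2 fold change was 0.37. In 14 all CFSE-labeled values lay above all unlabeled ones, which was so for 9.33% of all genes. The median per library was 0.49, 0.56, 0.24 and 0.27 with CFSE and -0.10, 0.13, -0.01 and -0.04 without. Leaving out a library gave medians of 0.34 to 0.45, with 0 calls without CFSE-labeled library 1 or 2 or unlabeled library 1 or 4 and 2 calls without unlabeled library 3. SLC7A11 (chr4:139085251-139163503), the cystine importer that feeds glutathione synthesis, counted 169, 191, 129 and 105 CPM with CFSE and 52.1, 75.2, 65.9 and 49.5 CPM without (log2 fold change 1.29 ± 0.24, adjusted p = 0.0169). GCLC, the catalytic subunit of the rate-limiting enzyme of glutathione synthesis, was at 90.6, 98.8, 74.1 and 70.4 CPM and 47.1, 48.3, 55.2 and 51.6 CPM (log2 fold change 0.72 ± 0.14, adjusted p = 0.0169). NQO1, a quinone reductase, counted 2982, 3249, 2405 and 2628 CPM against 1779, 2378, 1859 and 1810.0 CPM (log2 fold change 0.53 ± 0.14, adjusted p = 0.0419). In each of these genes every CFSE-labeled library was above every unlabeled one, and CFSE-labeled libraries 1 and 2 were the highest. Among the other members called were TXN, AKR1B10 and TXNRD1, of which TXNRD1, the thioredoxin reductase, had a log2 fold change of 0.77 ± 0.18 (adjusted p = 0.0252). HMOX1, the heme oxygenase, was at 42.8, 41.7, 28.4 and 30.5 CPM and 22.8, 23.3, 28.2 and 26.9 CPM and did not pass at day 6 (log2 fold change 0.50 ± 0.15, adjusted p = 0.0609), while at day 1 its log2 fold change was 0.62 ± 0.15 (adjusted p = 0.00931). Without the library labelled unlabeled day 1 replicate 4, HMOX1 passed on both days (adjusted p = 0.0256 at day 6 and 0.0242 at day 1). GCLC rose at day 1 as well (0.51 ± 0.14, adjusted p = 0.0165, and 0.0421 without the library labelled unlabeled day 1 replicate 4), and SLC7A11 and NQO1 did not pass there (0.45 and -0.07).

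Glutathione transferases and peroxidases did not follow. Of 16 genes of glutathione and amine conjugation tested, none rose and GGT1 fell (6.25%, against 2.03% of all genes tested), with a median of 0.01. GGT1, the surface enzyme that breaks down extracellular glutathione, counted 3.01, 2.42, 3.45 and 4.45 CPM with CFSE and 17.2, 11.5, 11.3 and 10.7 CPM without (log2 fold change -1.92 ± 0.48, adjusted p = 0.0313). GSTK1, a glutathione transferase, was at -0.44 and missed the threshold (adjusted p = 0.0893). Metallothioneins, which bind zinc and copper, gave 0 calls among 6 genes in edgeR and DESeq2 (1 with an unadjusted p under 0.05), MT2A being at 236, 203, 138 and 159 CPM against 91.1, 146, 92.8 and 103 CPM (log2 fold change 0.76 ± 0.29, adjusted p = 0.115) and MT1F at -0.46 (adjusted p = 0.221). Without the library labelled unlabeled day 1 replicate 4, MT2A passed in edgeR (adjusted p = 0.0342) and MT1F did not (0.182).

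Cytosolic chaperones were higher in part. Of 19 chaperones and HSF1 targets, 4 rose (21.1%, against 3.11% of all genes tested) and none fell (median 0.41). HSPH1, a nucleotide exchange factor of HSP70, counted 350.0, 356, 254 and 231 CPM with CFSE and 165, 196, 168 and 146 CPM without (log2 fold change 0.82 ± 0.16, adjusted p = 0.0169). HSP90AA1, the inducible form of HSP90, was at 3836, 3907, 2827 and 2834 CPM and 2332, 2560.3, 2144 and 1982 CPM (log2 fold change 0.57 ± 0.14, adjusted p = 0.0338). The others called were AHSA1, an activator of HSP90, and CHORDC1, an HSP90 co-chaperone. At day 1, 10 of the 19 rose (median 0.57, and 8 with a median of 0.49 without the library labelled unlabeled day 1 replicate 4). At day 6, 0 were called without CFSE-labeled library 1 or 2 or unlabeled library 1 or 4, and 1 without unlabeled library 3. Among 19 ATF4 targets of the amino acid response, SLC7A11 and SLC3A2 rose (10.5%, against 3.11% of all genes tested) and none fell. SLC3A2, the heavy chain that pairs with SLC7A11 in the cystine transporter, counted 1551, 1647, 963 and 1027 CPM and 631, 992, 722 and 707 CPM (log2 fold change 0.77 ± 0.18, adjusted p = 0.0261), and unlabeled library 2 lay above CFSE-labeled library 3. Genes of the endoplasmic reticulum unfolded protein response gave 0 calls in edgeR and DESeq2 and 1 unadjusted p under 0.05 (20 tested, median 0.10), the smallest p-values being those of SEL1L (-0.35, adjusted p = 0.198) and MANF (0.28, adjusted p = 0.304).

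The 10 largest increases were taken among called genes whose groups did not overlap and whose log2 CPM averaged 1 or more, a rule met by 417 higher and 255 lower genes. They included genes of small-molecule handling. ALDH3A1 (chr17:19641297-19652256), an aldehyde dehydrogenase, counted 349, 351, 232 and 252 CPM with CFSE and 67.9, 128, 126 and 136 CPM without (log2 fold change 1.37 ± 0.29, adjusted p = 0.0193). ABCG2 (chr4:89011302-89152780), a drug efflux pump that marks side population cells, was at 5.22, 4.76, 2.98 and 3.06 CPM and 1.74, 2.09, 1.33 and 1.06 CPM (log2 fold change 1.36 ± 0.26, adjusted p = 0.0169). At day 1 neither passed (-0.29 and 0.31). Of the 14 esterases and efflux pumps tested, ABCG2 alone rose and NOTUM alone fell (7.14% each, against 3.11% and 2.03% of all genes tested). The list's median was -0.02, and ABCB1, the pump P-glycoprotein, was at -0.13 (adjusted p = 0.499).

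PLK2 and CLCF1 were higher with the dye on both days. PLK2, a stress-induced polo-like kinase, counted 85.1, 77.7, 52.8 and 46.04 CPM with CFSE and 24.1, 38.01, 23.4 and 20.7 CPM without at day 6 (log2 fold change 1.3 ± 0.34, adjusted p = 0.0359), and its day 1 value was 1.94 ± 0.34 (adjusted p = 0.00203). CLCF1, a cytokine of the IL-6 family, was at 12.7, 11.3, 6.84 and 5.58 CPM and 3.25, 4.25, 3.04 and 3.89 CPM (log2 fold change 1.33 ± 0.33, adjusted p = 0.031). In both the CFSE-labeled libraries 3 and 4 stood much nearer to the unlabeled ones than libraries 1 and 2 did. AEN, a p53-induced nuclease, was at 1.23 ± 0.31 (adjusted p = 0.0323), CHAC2, a glutathione-degrading enzyme, at 1.27 ± 0.28 (adjusted p = 0.0229), and LAMA1, a laminin chain, at 1.23 ± 0.32 (adjusted p = 0.0357), none of which passed at day 1. LAMA1 was the exception in its pattern, its highest value being that of CFSE-labeled library 3 (6.09, 6.17, 7.72 and 5.51 CPM against 1.67, 2.66, 3.36 and 3.11 CPM).

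The largest decreases were larger than the increases. SAMD11 (chr1:859303-879955), which encodes a SAM domain protein, counted 0.396, 0.134, 2.104 and 2.13 CPM with CFSE and 19.98, 10.2, 11.7 and 13.5 CPM without (log2 fold change -3.49 ± 0.97, adjusted p = 0.0456). MB, which encodes myoglobin, was at 0.396, 0.939, 1.52 and 2.59 CPM and 21.7, 9.93, 7.79 and 8.41 CPM (log2 fold change -3.11 ± 0.68, adjusted p = 0.0228). NDP, which encodes norrin, a ligand of the Wnt receptor FZD4, gave 1.11, 1.48, 2.51 and 3.59 CPM and 24.98, 16.1, 14.3 and 12.3 CPM (log2 fold change -2.94 ± 0.81, adjusted p = 0.045). In each of these genes the CFSE-labeled libraries 3 and 4 held more than libraries 1 and 2, and all were below the unlabeled libraries. SELENBP1 (chr1:151336780-151345183), a selenium-binding protein of differentiated colon epithelium, counted 23.5, 24.4, 45.3 and 41.2 CPM and 214, 127, 168 and 176 CPM (log2 fold change -2.35 ± 0.50, adjusted p = 0.0212). CLIC3, a chloride intracellular channel protein, was at 14.95, 13.2, 18.3 and 24.4 CPM and 99.5, 59.2, 48.1 and 50.2 CPM (log2 fold change -1.85 ± 0.40, adjusted p = 0.0217). HOXB-AS4, a noncoding RNA of the HOXB cluster, gave 0.712, 0.805, 1.29 and 1.13 CPM and 3.71, 3.17, 5.26 and 4.804 CPM (log2 fold change -2.09 ± 0.55, adjusted p = 0.038), and whether the counting used strand is not given in the sources used here, so reads of overlapping genes cannot be told apart. The day 1 calls of these genes rested largely on the library labelled unlabeled day 1 replicate 4. SAMD11 was at 0.591, 0.221, 0.0731 and 0.109 CPM in CFSE-labeled day 1 libraries 1 to 4 and at 0.179, 0.208, 0.582 and 11.8 CPM in unlabeled ones, and SELENBP1 at 18.6, 14.2, 20.2 and 22.3 CPM and 25.2, 22.7, 22.5 and 150.5 CPM. With all libraries the day 1 log2 fold changes of the 6 genes were -3.71, -2.67, -2.85, -1.55, -2.08 and -2.52 in the order given, and all were called. Without that library they were -0.42, -0.92, 0.15, -0.32, -1.34 and -1.10, of which CLIC3 alone was called (adjusted p = 0.0108), and HOXB-AS4 was at an adjusted p of 0.0616. The difference between days then passed for NDP (-3.10, adjusted p = 0.0124) and SELENBP1 (-2.03, adjusted p = 0.00229).

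OLFM2, an olfactomedin, was at 2.37, 1.41, 1.99 and 2.46 CPM and 14.5, 7.49, 5.32 and 4.59 CPM (log2 fold change -1.95 ± 0.52, adjusted p = 0.0401), and its day 1 log2 fold change was -1.94 (adjusted p = 0.0398), or -0.82 (adjusted p = 0.288) without the library labelled unlabeled day 1 replicate 4. DIRAS2, a small GTPase, counted 1.11, 1.34, 0.935 and 1.196 CPM and 8.93, 3.53, 3.86 and 2.26 CPM (log2 fold change -2.01 ± 0.44, adjusted p = 0.0219). ANGPTL4, a lipoprotein lipase inhibitor induced by hypoxia and fatty acids, gave 4.11, 4.496, 4.68 and 4.92 CPM and 73.2, 34.5, 8.93 and 8.97 CPM (log2 fold change -2.78 ± 0.74, adjusted p = 0.0399). Its unlabeled values divided into libraries 1 and 2, which were several times higher, and libraries 3 and 4, which were close to the CFSE-labeled ones, and the log2 fold change without unlabeled library 1 was -1.93.

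**Figure D5:**
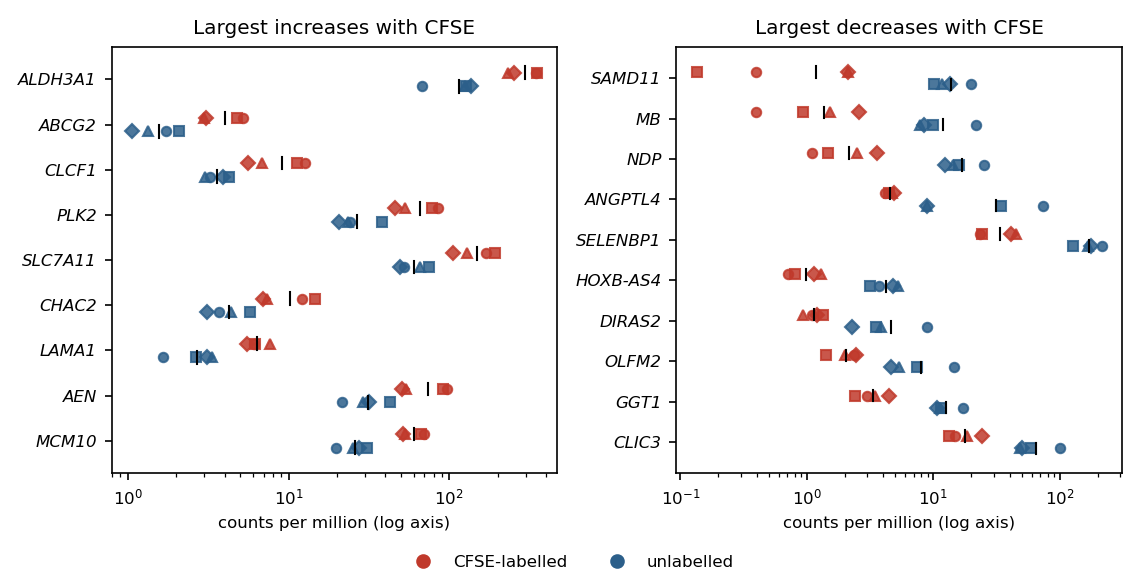
CPM (log axis) of 9 of the 10 genes with the largest increase (left) and the 10 with the largest decrease (right) for CFSE at day 6, 1 point per library (red CFSE-labeled, blue unlabeled; circle, square, triangle and diamond for libraries 1 to 4) with black ticks at the mean of 4. The groups do not overlap in any of them, as the choice required, and ANGPTL4 in the unlabeled group runs from 8.93 to 73.2 CPM.

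Hypoxia genes marked unlabeled library 1. Of 29 genes of hypoxia and glycolysis tested, 3 fell (10.3%, against 2.03% of all genes tested) and none rose (median -0.31). The median per library was 0.12, -0.11, -0.37 and -0.28 with CFSE and 0.90, 0.28, -0.56 and -0.55 without, so the unlabeled group held both the highest and the lowest libraries. Without unlabeled library 1 the median was 0.12, within libraries 1 and 2 it was -0.62 and within libraries 3 and 4 it was 0.25. CA9, a carbonic anhydrase induced by hypoxia, counted 17.4, 18.7, 17.1 and 19.7 CPM with CFSE and 99.9, 56.3, 20.5 and 19.7 CPM without (log2 fold change -1.43 ± 0.36, adjusted p = 0.0346, and -0.82 without unlabeled library 1). ALDOC, an aldolase, was at 2.14, 2.62, 1.695 and 2.46 CPM and 35.4, 13.4, 1.900 and 3.11 CPM (log2 fold change -2.59 ± 0.66, adjusted p = 0.034, and -1.45 without that library). Unlabeled libraries 3 and 4 lay at the level of the CFSE-labeled ones in both. The third, PFKL, a phosphofructokinase, had no overlap (159, 150.4, 155 and 163 CPM against 227, 219, 189 and 193 CPM, log2 fold change -0.40 ± 0.11, adjusted p = 0.0468). The 13 mitochondrially encoded genes gave 0 calls in edgeR and DESeq2 and 1 unadjusted p under 0.05 (median -0.34, and -0.01 without unlabeled library 1). MT-CO1, a subunit of cytochrome c oxidase, was at 4668, 6679.8, 5035 and 4972 CPM and 12943, 8018, 5048 and 5370.2 CPM (adjusted p = 0.163), and MT-ND6 at -0.67 (adjusted p = 0.224).

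Calls in pathways of stem cells and differentiation are set beside those of all genes tested, of which 3.11% rose and 2.03% fell, with a median of -0.03. Of the 13 Hedgehog genes 0 passed in edgeR or DESeq2, and 1 had an unadjusted p under 0.05 (median -0.30, with 11 of the 13 below 0). PTCH1, the receptor and a target of the pathway, was at 46.4, 40.8, 64.7 and 61.1 CPM and 67.6, 65.8, 74.2 and 67.6 CPM (log2 fold change -0.37 ± 0.19, adjusted p = 0.248), CDON, a co-receptor, at -0.39 (adjusted p = 0.17) and GLI1, the effector, at -0.46 from about 1 CPM (adjusted p = 0.383). Of 19 Wnt targets and crypt stem cell markers, 1 fell and none rose (median -0.18). That gene was NOTUM, a secreted feedback inhibitor that removes the lipid of Wnt ligands, with 17.96, 17.7, 40.9 and 42.1 CPM and 96.3, 76.6, 85.4 and 89.3 CPM (log2 fold change -1.55 ± 0.39, adjusted p = 0.0325) and -1.98 ± 0.41 at day 1 (-1.21 ± 0.27 without the library labelled unlabeled day 1 replicate 4). ASCL2, a transcription factor of crypt stem cells, was at 38.05, 37.1, 77.3 and 89.6 CPM and 151, 125, 145 and 159 CPM and missed the threshold (log2 fold change -1.26 ± 0.37, adjusted p = 0.0552, and 0.0146 without that day 1 library). LGR5, the stem cell marker, was under 1 CPM in all 8 libraries (adjusted p = 0.94), and PTK7, a surface pseudokinase by which the study sorted cells, was at 250.1, 244, 293 and 287 CPM and 273, 316, 305 and 324 CPM (log2 fold change -0.18 ± 0.12, adjusted p = 0.38). The 12 intestinal differentiation genes had a median of -0.69, with 10 of the 12 below 0, and edgeR called 1 and DESeq2 2 lower. DPP4, a brush border peptidase, fell (4.19, 5.17, 3.57 and 4.32 CPM against 14.8, 8.85, 7.09 and 8.34 CPM, log2 fold change -1.18 ± 0.29, adjusted p = 0.0295 in edgeR). VIL1, which encodes villin, was at 50.8, 56.9, 111 and 113 CPM and 168, 139, 178 and 181 CPM (log2 fold change -1.01 ± 0.30, adjusted p = 0.0582, and 0.0159 without that day 1 library). KRT20 was at 0.633, 1.81, 0.701 and 1.13 CPM and 1.82, 2.23, 2.91 and 2.402 CPM (adjusted p = 0.174, and 0.0529 without that day 1 library).

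Among 9 keratins edgeR called 0 and DESeq2 2, and 4 had an unadjusted p under 0.05 (median -0.19). KRT19 was at 1111, 1084, 969 and 1138 CPM and 1899, 1587, 1254 and 1261 CPM (log2 fold change -0.48 ± 0.14, adjusted p = 0.0558) and KRT80 at -0.63 (adjusted p = 0.0813). Among 7 matrix metalloproteinases edgeR called 0 and DESeq2 1, and 1 had an unadjusted p under 0.05 (median -0.27), with MMP11 at -0.93 (adjusted p = 0.0752) and MMP15 at -0.27 (adjusted p = 0.212). Of 13 complement genes 2 fell (15.4%, against 2.03% of all genes tested). CFD, the protease factor D, had 6.41, 5.91, 6.37 and 5.98 CPM and 10.2, 8.93, 9.82 and 9.11 CPM (log2 fold change -0.63 ± 0.15, adjusted p = 0.0307), and C1R, a protease of the first component, had 1.503, 2.89, 2.63 and 3.06 CPM and 4.62, 4.68, 6.14 and 4.66 CPM (log2 fold change -0.99 ± 0.27, adjusted p = 0.0431). Of 22 interferon-stimulated genes 1 fell, IRF9, the DNA-binding part of the interferon-activated complex ISGF3 (8.78, 6.44, 12.4 and 12.3 CPM against 26.04, 15.8, 26.7 and 23.5 CPM, log2 fold change -1.20 ± 0.23, adjusted p = 0.0169), and IFI27 was at -1.39 (adjusted p = 0.0588). Among 9 NF-kB targets edgeR called 0 and DESeq2 1, and 5 had an unadjusted p under 0.05 (median 0.30, with NFKBIA at -0.45 and RELB at 0.70). Of 20 lysosome and autophagy genes 1 rose, GLA, the alpha-galactosidase (81.95, 93.01, 56.001 and 52.5 CPM against 37.5, 52.2, 36.3 and 33.1 CPM, log2 fold change 0.83 ± 0.23, adjusted p = 0.042), and the protease gene CTSD was at -0.58 (adjusted p = 0.0858). Without the library labelled unlabeled day 1 replicate 4, several genes of this paragraph that had missed the threshold passed at day 6 in edgeR. They were KRT19 (adjusted p = 0.0228), KRT80 (0.00679), MMP11 (0.00251), IFI27 (0.00396), NFKBIA (0.0315), RELB (0.0435) and CTSD (0.011). MMP15 did not pass (0.0722).

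The labeled cell type was checked against markers. The 11 colorectal epithelium markers tested summed to 7864 to 9898 CPM with CFSE and 8829 to 9917 CPM without, with a median of -0.48. Called were 0 in edgeR and 4 in DESeq2, 8 had an unadjusted p under 0.05 (6 of them lower), and in 6 of the 11 all CFSE-labeled values were below all unlabeled ones, which was so for 10.6% of all genes. KRT19, VIL1 and the intestinal factor CDX2 (132, 131, 192 and 220.4 CPM against 399, 335, 369 and 372 CPM, adjusted p = 0.0648) were among these. Fibroblast markers were near 0: 2 of 8 were tested, PDGFRB (log2 fold change -1.62, adjusted p = 0.087) and COL1A1 (-0.38), and the list summed to 1.88 to 3.33 CPM with CFSE and 3.41 to 6.22 CPM without. Leukocyte markers (3 of 8 tested, 0 called in edgeR or DESeq2, 1 with an unadjusted p under 0.05) summed to 6.90 to 9.49 CPM and 5.53 to 8.49 CPM, chiefly from CD14 (8.07, 8.32, 5.85 and 7.11 CPM against 5.15, 7.703, 6.78 and 5.65 CPM), with LYZ at 0.98 (adjusted p = 0.0685), and PTPRC and CD3E did not reach the count filter. None of 8 endothelial and erythroid markers was tested. Without the library labelled unlabeled day 1 replicate 4, KRT19 (adjusted p = 0.0228), VIL1 (0.0159), PDGFRB (0.0307) and LYZ (0.0438) passed in edgeR. COL1A1 (0.431) and CD14 (0.506) did not.

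Over all calls, genes called higher with the dye had a median transcript GC content of 43.97% and those called lower 58.6%, against 48.3% over all tested genes with a transcript model. In the tenth of genes with the highest GC content 4 rose and 84 fell, and in the tenth with the lowest 56 rose and 4 fell. Over all genes the Spearman rho of log2 fold change with GC content was -0.11. With the trend on GC content and length removed, a setting added after seeing the data, 1102 genes were called (682 higher and 420 lower), 656 of them shared with the 745. The G2/M median was then 0.59 with 39 calls.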

How the data were processed

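The authors deposited 1 table of raw read counts per gene for each library, made with TopHat and HTSeq on build hg19, with genes under Ensembl identifiers (versions not given in the sources used here). Summary lines for reads outside genes or aligned ambiguously were left out of library sizes and tests (reads outside genes were 5.19% to 8.35% of a library). Genes needed 10 or more counts in 4 or more of the 16 unsorted DLD1 controls, and counts were scaled by TMM, and fitted with group means by edgeR's quasi-likelihood test (edgeR 4.0.16, limma 3.58.1, R 4.3.3) with Benjamini-Hochberg adjustment over all genes tested and a threshold of 0.05. SE is the size of the log2 fold change divided by the square root of F. CPM (reads per 1000000 reads on genes) use TMM-scaled library sizes, and log2 CPM a prior count of 2. LRC and BULK libraries had a fit of their own, without a block. Their titles pair an LRC and a BULK library under 1 replicate number, and the deviations of same-numbered libraries from their group means correlated at 0.255, 0.504, 0.339 and 0.314, so blocked counts are given beside the unblocked ones. DESeq2 1.42.0, other filters, scalings, samples, a block and left-out libraries were alternatives. The scripts were tested on simulated data. Base composition came from the longest transcript of each gene in GENCODE lifted to GRCh37, which also gave symbols and positions for 47098 of 54127 genes listed. Promoters came from RefSeq on GRCh38.p14, the first listed per symbol, and 10679 tested genes (73.6%) had one.

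The members were set by their labels, but earlier results of these data were known when this comparison and the gene lists were chosen. The genes named were the 10 largest changes in each direction among called genes with a symbol, no overlap between groups and an average log2 CPM of 1 or more, the 2 members of each list with the smallest p, and 10 fixed names (TYMS, MKI67, NQO1, HMOX1, CDKN1A, LGR5, KRT20, PTK7, GLI1 and MYC). Other names (among them PCNA, CDC6, TOP2A, SLBP, DSCC1, TXN, TXNRD1, AKR1B10, AHSA1, CHORDC1, PFKL, ABCB1, CDX2 and the genes under other observations) were added after their values were seen. Some genes that met these rules are not reported here. Intervals are not given for single libraries, and total counts show only the counting depth.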

Additional observations from a re-analysis of the deposited data

Results flagged for a closer look

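For 4 named genes the dye effect differed between day 6 and day 1 by the test of the difference in the edgeR fit. The difference in log2 fold change was 0.80 for ATAD2 (adjusted p = 0.0338), 0.90 for CKAP2L (adjusted p = 0.0106), 1.12 for EBP (adjusted p = 0.0314) and 1.09 for TYMS (adjusted p = 0.0356), higher at day 6 in each. Without the library labelled unlabeled day 1 replicate 4 these differences were 0.86, 0.96, 1.26 and 1.24. The difference then passed for further named genes in both directions. It was positive for ALDH3A1 (1.91, adjusted p = 0.00241), LAMA1 (1.80, adjusted p = 0.0127) and SLC7A11 (1.06, adjusted p = 0.0283). It was negative for GGT1 (-2.46, adjusted p = 0.00235), ANGPTL4 (-4.31, adjusted p = 0.0289) and IRF9 (-1.33, adjusted p = 0.0149). More named genes passed, among them MCM10, DTL, NDP and SELENBP1, which are described above.

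In 8 of 150 groups of 4 libraries examined for the 75 named genes, 1 library stood apart, with its gap to the nearest library divided by the group's range above Dixon's critical value for 4 values. Chance gives about 1 in 20 such groups. Unlabeled library 1 stood apart for ALDH3A1 (lowest, 0.894), GGT1 (highest, 0.851), JUND (highest, 0.880) and NFKBIA (highest, 0.843). Unlabeled library 2 was the highest for TYMS (0.840) and NQO1 (0.849). Unlabeled library 3 was the highest for C1R (0.954), and CFSE-labeled library 1 was the lowest for SEL1L (0.895, at 71.2, 85.96, 87.2 and 85.4 CPM in libraries 1 to 4).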

How the results depend on the processing

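The count of genes called for the dye at day 6 (745, of which 60.5% higher) was 1521 with DESeq2 (817 higher and 704 lower), 1530 with the 8 day 6 libraries alone (752 higher and 778 lower, or 49.2% higher) and 1779 at an adjusted p under 0.10. Leaving out 1 library of either day gave 0 to 1973, and 0 to 814 with a day 6 library left out. Settings added after seeing the data gave 1 with libraries 1 and 2 only (3140 at an unadjusted p under 0.05), 0 with libraries 3 and 4 only (1145 at an unadjusted p under 0.05), 2595 with a term for that split, and 1992 with GC and length offsets and a replicate block together. The count of genes whose dye effect differed between days (145) was 454 without a filter on low counts, 85 without TMM scaling, 623 with DESeq2, 473 at an adjusted p under 0.10 and 16 to 835 with 1 library left out. The overlap with the LRC calls (286) was 434 without the filter, 530 with DESeq2, 488 with the 8 libraries alone, 707 at an adjusted p under 0.10 and 0 to 314 with 1 library left out. The day 1 count (3162) was 1355 to 3724 with 1 library left out. The dye's share of variance in the 16 controls (16.2%) was 12.9% to 17.8%. With all libraries, day held 38.5%, the product of day and dye 6.07% and the residual between replicates 39.2%. These shares are a description without a test. Under the replicate block, 1511 genes were called (810 higher and 701 lower), with an overlap of 824 where the block, which pairs LRC with BULK, stood in both fits. The replicate numbers share no stated source, deviations of same-numbered libraries correlated at 0.058, 0.503, 0.314 and 0.207, and CFSE-labeled libraries 1 and 3 correlated best with unlabeled libraries 2 (0.405) and 4 (0.527). No named gene that was called changed direction in any of these settings, which the choice of called genes from the same libraries favored. LGR5 and COL1A1, which were not called, did: LGR5 was at 0.09 and ran from -0.34 to 0.56 with 1 library left out, and COL1A1 was at -0.38 and at 0.16 with libraries 1 and 2 only. With 1 library left out, 208 of 600 values of the 75 named genes lost significance and 5 gained it. The 600 include genes that were not called with all libraries and so could not lose it. The share lost among called genes was therefore higher than 208 of 600. Except where a value above shows it, the cause was not tested. The number of libraries, 4 a group, limits the precision of every fold change.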

Other observations

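The following 5 gene groups were put together after the values were seen, so their counts describe the data and carry no test of the groups. Over all genes tested, 3.11% rose and 2.03% fell at day 6. Of 21 genes of the replication fork and of origin licensing, 19 rose with the dye at day 6 and none fell (median log2 fold change 0.86). This group holds MCM10 and shares members with the S phase list, so its counts in part repeat those above and are not separate evidence. In all 21 the CFSE-labeled libraries lay above the unlabeled ones, which was so for 9.33% of all genes. GINS1, a subunit of the replicative helicase, counted 54.7, 59.6, 48.1 and 51.7 CPM with CFSE and 32.3, 29.9, 29.4 and 31.4 CPM without (log2 fold change 0.80 ± 0.13 SE, adjusted p = 0.0161 in edgeR). In label-retaining cells 18 of the 21 were lower than in cycling cells (21 with the replicate block). Of 17 feedback genes and ligands of ERK and EGF signaling, edgeR called 4 higher (ETV5, DUSP6, EREG and ETV4) and 0 lower, and DESeq2 5 higher and 1 lower. DUSP6, the phosphatase that switches off ERK, was at 174, 184, 121 and 115 CPM and 67.1, 103, 60.5 and 58.6 CPM (log2 fold change 1.04 ± 0.22, adjusted p = 0.0216), and EREG, an EGF receptor ligand, at 417, 445, 244 and 230.4 CPM and 189, 216, 119.8 and 104 CPM (log2 fold change 1.09 ± 0.27, adjusted p = 0.0314).

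Some groups of developmental regulators held decreases, which made up 2.03% of all genes tested. Of 8 HOXB genes, 4 fell (HOXB5, HOXB6, HOXB8 and HOXB9) and none rose (median -0.80), while 7 had fallen at day 1 (5 without the library labelled unlabeled day 1 replicate 4). HOXB6 counted 81.005, 80.996, 169 and 158 CPM with CFSE and 358, 254, 324 and 378 CPM without (log2 fold change -1.43 ± 0.29, adjusted p = 0.0187). Of 9 ID genes and BMP response genes, ID1 and ID3, inhibitors of basic helix-loop-helix factors, fell. ID3 was at 71.9, 69.3, 109.7 and 127 CPM and 251, 235, 249 and 259 CPM (log2 fold change -1.40 ± 0.26, adjusted p = 0.0169) and at -2.00 ± 0.27 at day 1 (-1.56 ± 0.17 without that library). Of 5 class 3 semaphorins, SEMA3B and SEMA3F fell, SEMA3B being at 18.7, 15.5, 40.4 and 37.3 CPM and 64.9, 50.7, 77.1 and 91.99 CPM (log2 fold change -1.35 ± 0.29, adjusted p = 0.0214). All calls of these 5 groups were lost (0 left) without CFSE-labeled library 1 or 2 or unlabeled library 1, and without unlabeled library 4 1 call was left, in the replication group.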
